A study of Mus musculus with 4 samples.

Results

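The genes described here are the cytokine gene Il2, 8 receptor chain genes of the interleukin-2 (IL-2) and common gamma chain family (Il2ra, Il2rb, Il2rg, Il4ra, Il7r, Il9r, Il15ra and Il21r), and the feedback gene Cish. They are 10 of the 18560 genes in the expression table and were chosen by name, though with earlier results of these data known. All 10 were found. The libraries came from mouse spleen CD4+ T cells of strain C57BL/6, which were naive at the start and were then activated with antibodies against CD3 and CD28 to give Th0 cells, which have been activated without signals toward any effector type. There were 2 wild type libraries, numbered 1 and 6, and 2 libraries of genotype Setd2-CD4 cre, numbered 9 and 12, here called knockout. Setd2 is the enzyme that trimethylates lysine 36 of histone H3. A Cre recombinase under Cd4 control acts during T cell development in the thymus and so also reaches cells that become CD8 T cells. Whether the wild type mice carried the Cre or altered Setd2 alleles, how old they were, and whether each library is a separate mouse are not stated in the labels. The p-values therefore cover only the spread among these 4 samples, which could be technical. The length of stimulation differs between the labels, with 48 in the titles, 3 days in the treatment text and 2 days in the series design.

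IL-2 is secreted by activated T cells and acts back on them as a growth and survival signal. Its receptor has an alpha chain (Il2ra, CD25) that raises affinity and lacks a signalling tail, a beta chain (Il2rb, CD122) shared with IL-15, and the common gamma chain (Il2rg), which also serves the receptors for IL-4, IL-7, IL-9 and IL-21. The gamma chain signals through the kinase JAK3 and its partner chains through JAK1. Downstream, STAT5 switches on genes that include Il2ra and the feedback gene Cish, while IL-2 signalling lowers Il7r.

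None of these genes differed between genotypes by the test. The quasi-likelihood test of edgeR called 0 of the 9 tested genes at an adjusted p under 0.05, and adjusted p values ran from 0.531 (Il15ra) to 0.957 (Il4ra). Il2 had too few counts to be tested. At an unadjusted p under 0.05 the count was also 0 of 9, DESeq2 called 0 of 10 and limma-voom 0 of 9. Over all 12816 genes tested, edgeR called 0.00780% (1 gene, Agpat4), and 6.23% were higher and 5.73% lower at the unadjusted p. DESeq2 called 1.33% of the 13708 genes to which it gave an adjusted p, the share set beside its calls below. In value 5 of the 9 genes were higher and 4 lower in knockout, with a median log2 fold change of 0.05 against -0.002 over all genes. For 7 of the 9 genes the 95% interval of the difference lay within 2-fold in either direction, and the exceptions were Il9r and Cish. With 2 libraries against 2, an exact permutation test of a single value cannot go below p = 0.333, so none is given.

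**Figure D1:**
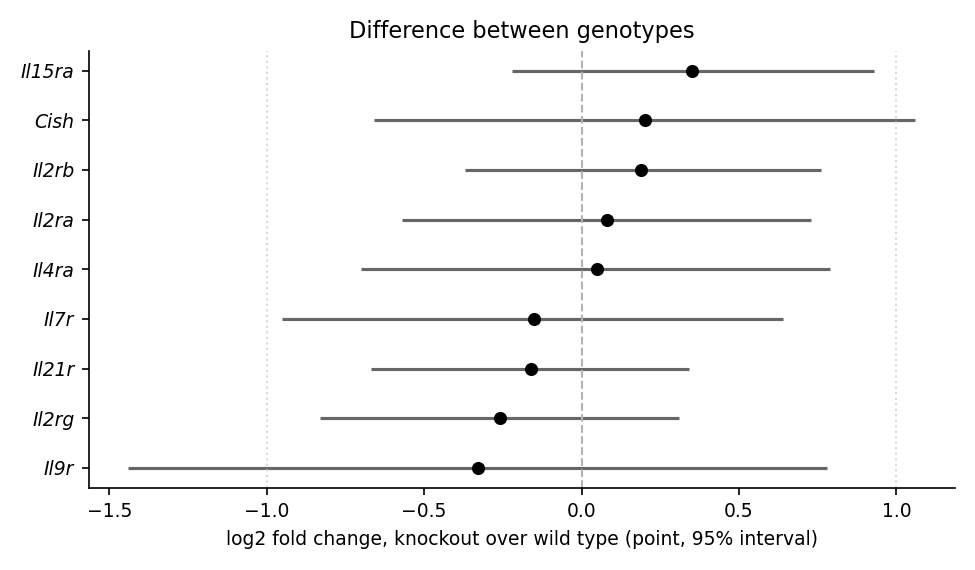
Fitted log2 fold change (horizontal axis, knockout over wild type) of the 9 tested genes, with the 95% interval as a line. Every interval spans 0, and those of Il9r and Cish reach past a 2-fold difference, marked by dotted lines.

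The libraries held between 17284613 and 20418766 counts, and levels below are counts scaled to library size (CPM) with TMM factors unless FPKM, the value per kilobase of gene, is named. Values are given as wild type replicates 1 and 6 versus knockout replicates 9 and 12, in that order. Setd2 was found at 157 and 174 CPM (wild type) versus 127 and 113 CPM (knockout) (log2 -0.47, SE 0.21, edgeR adjusted p 0.421). A gene-level count adds every exon, so it does not show the deleted part. The defining CD4 T cell markers were present in each library, with Cd4 at 464 and 575 versus 403 and 444 CPM. The 6 measured markers of that list each lay lower in the knockout pair, with sums of 2058 and 2369 versus 1702 and 1617 CPM, a position relative to wild type shared by 24.3% of all genes tested. Summed over their lists, the 2 CD8 T cell markers lay between 260 and 432 CPM and the 5 B cell markers between 179 and 335 CPM. The 4 NK cell markers lay between 7.12 and 34.3 CPM, the 6 myeloid markers between 3.56 and 7.48 CPM, the 3 red cell markers between 2.15 and 19.4 CPM, and the 4 granulocyte and mast cell markers between 0.559 and 2.67 CPM. Of the last list S100a8 was at 0 in 3 libraries, and of the gamma-delta T cell list Sox13, the 1 marker measured, was under 1 CPM. In such bulk libraries fewer cells of a type and less RNA per cell cannot be told apart.

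Il2 itself (gene 16183, GRCm38.p6 chromosome 3, 37120713 to 37125954) was barely detected. It had 1 and 8 counts in wild type replicates 1 and 6, and 6 and 14 counts in knockout replicates 9 and 12. The groups overlapped, since wild type replicate 6 lay above knockout replicate 9. Summed over libraries and scaled to total counts, the ratio of knockout to wild type was 2.26, with an exact counting interval from 0.985 to 5.65 that covers counting error only. Fitted without the filter on low counts, its edgeR log2 fold change was 1.23 (SE 1.27, adjusted p 0.753), and in DESeq2 it was 1.24 (SE 1.68, adjusted p 0.832). In FPKM it ranged from 0.05 to 0.74, and at most 41.3% of all genes stood lower than it within a library. No difference in Il2 was detected, and the interval leaves room for one of several fold. The 3 genes with the profile nearest to that of Il2 over the 4 libraries were Eng, Castor1 and Crip2, at distances of 0.600, 0.607 and 0.629 in centred log2 CPM, a likeness that rests on the few counts of Il2.

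The receptor for IL-2 stood near the top of the expressed genes in every library. On the FPKM scale Il2ra (gene 16184, chromosome 2, 11642792 to 11693194) had 492 and 295 FPKM in wild type and 406 and 386 FPKM in knockout. Il2rb (gene 16185, chromosome 15, 78479256 to 78511621) had 492 and 356 FPKM against 424 and 441 FPKM. Il2rg (gene 16186, chromosome X, 101264385 to 101268255) had 249 and 349 FPKM against 205 and 260 FPKM. For each of the 3 chains the ranges of the genotypes overlapped, and between 98.2% and 99.2% of genes stood lower within a library. Il2rb and Il2ra did not separate from each other beyond the spread over libraries, and Il2rg lay below both in 3 of the 4 libraries. In wild type replicate 6 the order differed, with Il2rg above Il2ra.

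**Figure D2:**
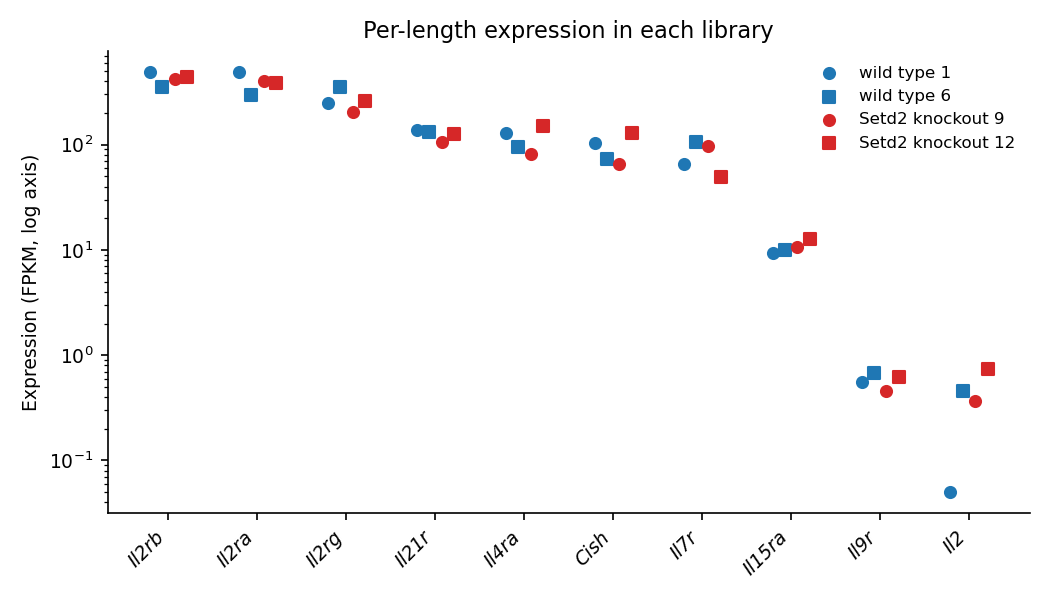
FPKM (vertical log axis) of the 10 genes in each of the 4 libraries, ordered by mean level. Il2rb, Il2ra and Il2rg lie between 205 and 492 FPKM, Il15ra near 10 FPKM, and Il9r and Il2 below 1 FPKM, with colours for genotype overlapping in most genes.

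In CPM Il2ra stood at 2202 and 1251 in wild type and at 1822 and 1826 in knockout libraries. The knockout libraries were nearly equal and fell between the wild type libraries, which differed 1.76-fold. The fitted ratio was 1.06 (95% interval 0.673 to 1.66, log2 0.08, SE 0.28, edgeR adjusted p 0.915). Il2ra marks regulatory T cells as well as activated cells, and 4 of the 6 regulatory T cell markers lay lower in both knockout libraries, where 24.3% of all genes did. edgeR and limma-voom called 0 of the 6, and DESeq2 called 3, against 1.33% of all genes by DESeq2. The 3 were Foxp3, Izumo1r (DESeq2 adjusted p 0.0372) and Gpr83 (log2 -2.56, SE 0.53, edgeR adjusted p 0.275, DESeq2 adjusted p 0.000308). Ctla4 (log2 0.2, SE 0.27), which was higher in value, and Ikzf2 (log2 -0.48, SE 0.35) overlapped between genotypes. Foxp3, the lineage factor, stood at 90.3 and 63.0 versus 20.5 and 39.4 CPM (log2 -1.36, SE 0.35, edgeR adjusted p 0.349, DESeq2 adjusted p 0.0145). The whole marker list, most of it Ctla4, summed to between 859 and 1219 CPM, and its part in the Il2ra level was not tested.

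Il2rb stood at 1700 and 1163 CPM (wild type) versus 1505 and 1762 CPM (knockout). Wild type replicate 6 was again the lowest library, and the other 3 lay within 1.17-fold of each other. The fitted ratio was 1.14 (95% interval 0.771 to 1.69, edgeR adjusted p 0.733). Il2rg stood at 406 and 540 versus 340 and 451 CPM, with wild type replicate 6 now the highest. Its log2 fold change was -0.26 (SE 0.25, edgeR adjusted p 0.641), a ratio of 0.836 with a 95% interval from 0.563 to 1.24. Without wild type replicate 6 that log2 fold change was -0.04, and those of Il2ra and Il2rb turned to -0.27 and -0.06.

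Because the partner chains pair with the gamma chain, each was also set against Il2rg within its own library, on the FPKM scale. Il2ra over Il2rg was 1.98 and 0.846 in wild type and 1.98 and 1.49 in knockout, and Il2rb over Il2rg was 1.98 and 1.02 against 2.07 and 1.70. In both ratios wild type replicate 6 stood apart and the genotypes overlapped. Il2ra over Il2rb varied less, at 0.829 in wild type replicate 6, at 0.958 and 0.876 in knockout, and at equal levels in wild type replicate 1. Ratios of Il4ra to Il2rg ran from 0.274 to 0.578, those of Il21r from 0.379 to 0.559 and those of Il7r from 0.189 to 0.470, with overlap between genotypes in each. Il9r over Il2rg lay between 0.00195 and 0.00239. The ratio of Il15ra to Il2rg was the 1 of 7 in which the genotypes did not overlap, a share below the 40.4% of all tested genes whose FPKM over that of Il2rg did not overlap. It stood at 0.0379 and 0.0285 in wild type and 0.0518 and 0.0484 in knockout. That is a difference of 0.61 on the log2 scale against a pooled SD of 0.21 between replicates, given as a description with no test. The effective lengths of Il15ra and Il2rg are close (1553 and 1641 bases), and the CPM ratio gave 0.60.

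**Figure D3:**
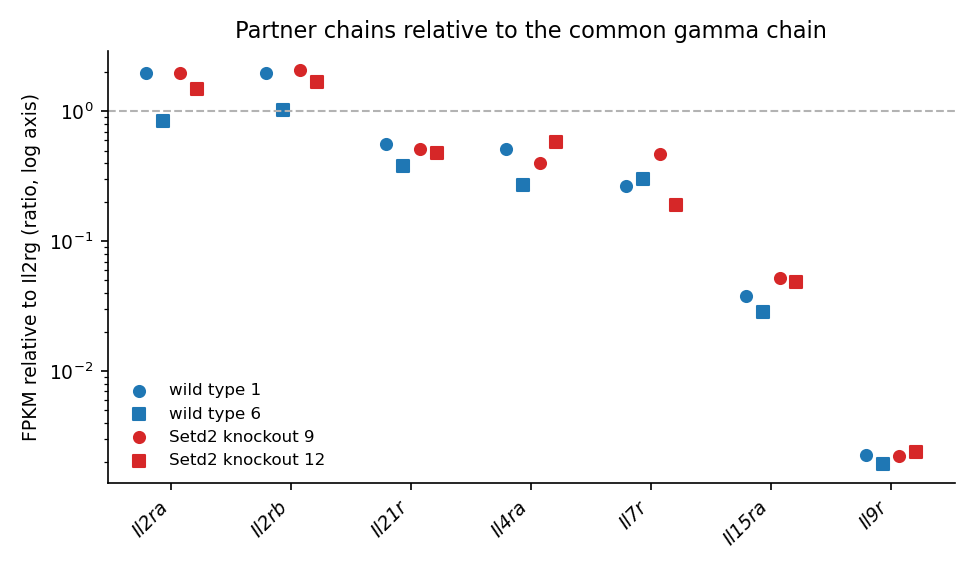
FPKM of each partner chain divided by that of Il2rg in the same library (vertical log axis, dashed line at equal levels). Wild type replicate 6 is the lowest library for Il2ra and Il2rb, and for Il15ra the knockout pair (0.0518 and 0.0484) lies above the wild type pair (0.0379 and 0.0285).

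Il15ra (gene 16169, chromosome 2, 11705172 to 11733985), the high-affinity chain for IL-15 that presents this cytokine to cells bearing Il2rb and Il2rg, was a low gene at 9.43 and 9.96 FPKM against 10.64 and 12.59 FPKM. Its CPM values were 14.1 and 15.1 in wild type and 16.6 and 20.6 in knockout, so the knockout pair lay wholly above the wild type pair. It was the 1 tested gene of the 9 whose genotypes did not overlap in CPM, where 49.7% of all genes tested did not overlap and 25.4% lay higher in knockout as Il15ra did. The log2 fold change was 0.35 (SE 0.25, edgeR adjusted p 0.531), a ratio of 1.28 with a 95% interval from 0.857 to 1.90. Over all genes the log2 fold change was lower the longer the gene, from a median of 0.38 under 1 kb to -0.48 over 8 kb, and 0.22 for genes of 1 to 2 kb such as Il15ra. With that trend removed the value for Il15ra was 0.16 and that for Il2rg was -0.44. By the smallest distance of centred log2 CPM over the 4 libraries, the genes most like Il15ra were Gng10 (0.0304), Rps29 (0.0330) and Elp6 (0.0351).

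Il4ra and Il7r, the chains that bind IL-4 and IL-7, differed more between replicates than between genotypes. Il4ra (gene 16190, chromosome 7, 125552271 to 125579474) stood at 504 and 362 CPM (wild type) versus 317 and 579 CPM (knockout). Both the lowest and the highest library were knockout libraries, and they differed 1.83-fold. The fitted ratio between genotypes was 1.03 (95% interval 0.617 to 1.73, edgeR adjusted p 0.957). Il7r (gene 16197, chromosome 15, 9506159 to 9529941), which binds IL-7, a survival signal of resting T cells, stood at 213 and 322 versus 313 and 167 CPM. Here knockout replicate 12 was the lowest library and wild type replicate 6 the highest. The ratio between genotypes was 0.899 (95% interval 0.517 to 1.56, edgeR adjusted p 0.854), while the knockout replicates differed 1.87-fold and the wild type replicates 1.51-fold. Without knockout replicate 12 the log2 fold change turned from 0.05 to -0.45 for Il4ra and from -0.15 to 0.23 for Il7r.

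Il21r (gene 60504, chromosome 7, 125603252 to 125634397), the receptor for IL-21, had 139 and 132 FPKM in wild type and 105 and 125 FPKM in knockout. On that scale the knockout pair lay wholly below the wild type pair, but in TMM-scaled CPM they overlapped, at 362 and 327 against 275 and 341. How many of all genes do not overlap in FPKM was not counted, and in CPM 49.7% did not. The log2 fold change of Il21r was -0.16 (SE 0.22, edgeR adjusted p 0.746), a ratio of 0.893 with a 95% interval from 0.631 to 1.27. Il9r (gene 16199, chromosome 11, 32187544 to 32205283), the receptor for IL-9, was a low gene, with between 39.74 and 80.55 counts in a library, at 2.85 and 4.09 versus 2.32 and 3.20 CPM. Its ratio of 0.796 had an interval from 0.369 to 1.72, the widest of the 9 genes on the log2 scale (edgeR adjusted p 0.764). In FPKM order Il21r, Il4ra, Cish and Il7r followed Il2rg, between 49.0 and 150 FPKM, and they changed places among each other from library to library. Il15ra was eighth in each library, and Il9r and Il2 held the last places.

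Cish (gene 12700, chromosome 9, 107296659 to 107302784) encodes a protein of the SOCS family that is induced by STAT5 and restrains cytokine and T cell receptor signalling. It stood at 319 and 211 CPM (wild type) versus 199 and 410 CPM (knockout). The knockout replicates, which differed 2.06-fold, were again the lowest and the highest library. Between genotypes the ratio was 1.15 (95% interval 0.632 to 2.09, log2 0.20, SE 0.37, edgeR adjusted p 0.821). Without knockout replicate 12 the log2 fold change was -0.41, and without knockout replicate 9 it was 0.62.

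Cish and Il4ra thus ranked the 4 libraries alike, and Il7r ranked knockout replicate 12 and wild type replicate 1 below the other library of their genotype. In 5 of the 9 genes (Cish, Il4ra, Il2ra, Il2rb and Il21r) CPM was higher in wild type replicate 1 than in 6 and in knockout replicate 12 than in 9, an order found in 32.2% of all genes tested. The opposite order held for Il7r, and for 30.9% of all genes. For Il2ra the knockout part of this order is only the step from 1822 to 1826 CPM. In 8 of the 9 genes, all but Il15ra, the larger gap between replicates exceeded the gap between genotype means, as it did in 67.5% of all genes. The 5 B cell markers summed to 262 and 179 CPM (wild type) versus 192 and 335 CPM (knockout), with the same library of each genotype higher as for Cish and Il4ra. The part of B cell RNA in these levels was not tested. Among genes of the pathway singled out after their values were seen, Socs2, another STAT5-induced inhibitor, had 108 and 43.5 versus 51.5 and 104 CPM.

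**Figure D4:**
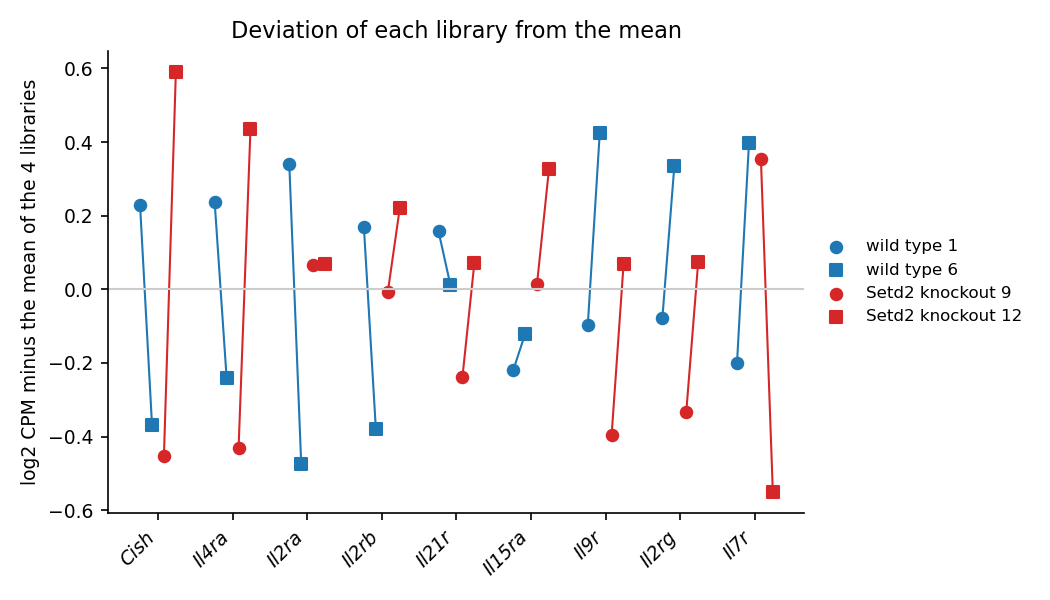
Log2 CPM of each library minus the mean of the 4 libraries (vertical axis) for the 9 tested genes, with a line joining the replicates of a genotype. Cish and Il4ra are high in wild type replicate 1 and knockout replicate 12, Il7r is low in the same libraries, and only Il15ra has the knockout pair wholly above the wild type pair.

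The promoters of these genes were searched for TTCNNNGAA, the palindromic letters bound by STAT5, which read the same on both strands. RefSeq windows of GRCm38.p6, from 250 bases before to 50 bases after a start site, were matched for 9 of the 10 genes (10 windows), and Il2rb was not among them. The letters were found in the windows of Cish and Il7r, and 8.30% of 32851 windows hold them. Cish had 2 matches, as 0.457% of windows have at least 2, the first beginning at the start site and the second 11 bases after it. Il7r had 1 match, which begins 142 bases before the start site of its window. The windows of Cish, Il4ra and Il7r are shown because, of the tested genes, these had the largest gaps between replicates on the log2 scale, with matches in capitals. They lie at chr9:107296409-107296708 (plus strand), chr7:125552021-125552320 (plus strand) and chr15:9529827-9530126 (minus strand).
Cish: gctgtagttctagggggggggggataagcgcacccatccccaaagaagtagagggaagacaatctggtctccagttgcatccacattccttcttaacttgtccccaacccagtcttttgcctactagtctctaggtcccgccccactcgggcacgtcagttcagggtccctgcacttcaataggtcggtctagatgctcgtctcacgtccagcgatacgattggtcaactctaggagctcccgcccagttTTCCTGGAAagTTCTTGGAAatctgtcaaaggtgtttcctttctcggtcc
Il4ra: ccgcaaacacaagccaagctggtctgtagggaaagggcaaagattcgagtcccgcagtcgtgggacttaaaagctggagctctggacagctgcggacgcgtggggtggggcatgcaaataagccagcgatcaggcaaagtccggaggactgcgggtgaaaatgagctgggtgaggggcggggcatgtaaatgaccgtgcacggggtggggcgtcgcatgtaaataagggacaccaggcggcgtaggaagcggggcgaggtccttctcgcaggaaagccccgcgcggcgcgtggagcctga
Il7r: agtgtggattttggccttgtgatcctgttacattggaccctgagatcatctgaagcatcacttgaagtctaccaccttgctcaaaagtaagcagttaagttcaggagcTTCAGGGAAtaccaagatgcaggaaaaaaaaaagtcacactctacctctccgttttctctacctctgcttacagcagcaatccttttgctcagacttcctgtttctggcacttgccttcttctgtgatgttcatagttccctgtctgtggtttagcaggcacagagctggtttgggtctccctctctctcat
Il4ra has no match in this window. A match is a description of letters and no evidence of binding, and whether STAT5 acts on these genes here was not tested.

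Of 9 genes for the other ligands and the partner chains outside the family, 6 could be tested, and 0 were called by edgeR, DESeq2 or limma-voom. At an unadjusted edgeR p under 0.05 there were 0 higher and 1 lower, against 6.23% and 5.73% of all genes. The 1 was Crlf2, which joins Il7r in the receptor for TSLP, at 51.2 and 81.6 versus 38.0 and 45.6 CPM (log2 -0.67, SE 0.27, edgeR adjusted p 0.413). The median of the 6 was -0.12. Il21, the gene of the ligand of Il21r, stood at 49.2 and 41.0 versus 36.5 and 61.6 CPM, with overlap between genotypes. Il9, left untested by the filter on low counts, was at 0.102 and 0.0505 CPM (wild type) versus 0.406 and 5.83 CPM (knockout). DESeq2, which had no such filter, called it (adjusted p 0.00982), with nearly all of its counts in knockout replicate 12. It was singled out after its values were seen.

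For the 16 genes of receptor signalling, 5 were higher and 11 lower in value (median -0.11), and 0 were called by edgeR or limma-voom and 1 by DESeq2. At an unadjusted edgeR p under 0.05, 4 were lower and 0 higher, against 5.73% and 6.23% of all genes. DESeq2 called 1.33% of all genes. Jak3, the kinase on the gamma chain, stood at 581 and 669 versus 447 and 380 CPM (log2 -0.60, SE 0.21, edgeR adjusted p 0.413). Jak1, the kinase on the partner chains, stood at 399 and 492 versus 324 and 268 CPM, and Jak2, which serves other cytokine receptors, at 240 and 345 versus 212 and 171 CPM. In each of these 3 kinases the knockout pair lay wholly below the wild type pair, as for 24.3% of all genes. Stat5a (log2 0.18, SE 0.21) and Stat5b (-0.36, SE 0.23), the factors downstream of IL-2, did not pass at any of these thresholds.

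Genes that STAT5 is known to control did not share a direction. Of 17 tested, 10 were higher and 7 lower in value (median 0.08). This list was not split into genes that STAT5 raises and genes that it lowers, so its median gives no reading of STAT5 activity. edgeR and limma-voom called 0 and DESeq2 called 3, against 1.33% of all genes by DESeq2. At an unadjusted edgeR p under 0.05, 2 were higher and 1 lower, against 6.23% and 5.73% of all genes. Osm, encoding the cytokine oncostatin M, stood at 30.6 and 27.2 versus 50.4 and 64.3 CPM (log2 0.99, SE 0.23, edgeR adjusted p 0.293, DESeq2 adjusted p 0.0417). Gzmb, encoding granzyme B, stood at 3475 and 1734 versus 6746 and 5027 CPM (log2 1.18, SE 0.34, edgeR adjusted p 0.385, DESeq2 adjusted p 0.0259). Foxp3, given above, was the third gene DESeq2 called and was the lower of these. Bcl2, Myc, Pim1 and Socs1 did not pass, with log2 fold changes of -0.40, 0.39, -0.10 and 0.31. For the 8 negative regulators of JAK and STAT, 2 were higher and 6 lower in value (median -0.07), with 0 calls by edgeR, DESeq2 or limma-voom. Ptprc, the phosphatase CD45, was the 1 of 8 lower at an unadjusted edgeR p, against 5.73% of all genes. It stood at 1499 and 1807 versus 1242 and 987 CPM (log2 -0.57, SE 0.22, edgeR adjusted p 0.413).

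Among 17 genes that act on Il2 transcription, 14 were lower in value and 3 higher, with a median of -0.43 against -0.002 over all genes. edgeR and limma-voom called 0 and DESeq2 called 2, against 1.33% of all genes by DESeq2. At an unadjusted edgeR p under 0.05 there were 5 lower and 0 higher, against 5.73% and 6.23% of all genes. The knockout pair lay wholly below the wild type pair for 13 of the 17, against 24.3% of all genes tested. In some of the 13, knockout replicate 9 lay close to wild type and replicate 12 well below. Examples are Cd28, at 513 and 558 versus 501 and 292 CPM, and Rel, at 32.3 and 32.7 versus 30.4 and 14.3 CPM. In others, such as those named next, both knockout libraries fell. Ikzf3 (Aiolos), a zinc finger factor that silences Il2, stood at 581 and 489 versus 223 and 156 CPM (log2 -1.5, SE 0.25, edgeR adjusted p 0.238, DESeq2 adjusted p 8.50e-06). Egr1, an immediate early factor, stood at 132 and 221 versus 85.6 and 56.7 CPM (log2 -1.31, SE 0.32, edgeR adjusted p 0.327, DESeq2 adjusted p 0.00592). Fos, a part of AP-1 (log2 -0.70, SE 0.28), and Tob1, an inhibitor of T cell proliferation (-0.55, SE 0.22), were also among the 5, each with an edgeR adjusted p of 0.413. The list holds both activators and silencers of Il2, and Il2 was too low to be set against them. Its median was -0.30 with the length trend removed.

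Of 7 factors that act on Il7r transcription, 6 were lower in value and 1, Gfi1 (log2 0.28, SE 0.21), was higher (median -0.54). The list was not split into factors that raise and factors that lower Il7r, so its median sets no direction for Il7r. edgeR and limma-voom called 0 and DESeq2 called 1, against 1.33% of all genes by DESeq2. At an unadjusted edgeR p under 0.05, 3 were lower, against 5.73% of all genes. Klf2, a factor of resting T cells, stood at 116 and 158 versus 68.2 and 70.8 CPM (log2 -0.98, SE 0.23, edgeR adjusted p 0.312, DESeq2 adjusted p 0.0249). Runx1 stood at 45.1 and 41.3 versus 24.6 and 27.7 CPM, and Ets1 at 1161 and 1207 versus 771 and 796 CPM, with edgeR adjusted p values of 0.385 and 0.403. Foxo1, known for driving Il7r, had a log2 fold change of -0.47 (SE 0.21, edgeR adjusted p 0.419). The knockout pair lay wholly below the wild type pair for 5 of the 7, against 24.3% of all genes tested. Il7r itself overlapped between genotypes. With the length trend removed the median of these factors was -0.25.

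**Figure D5:**
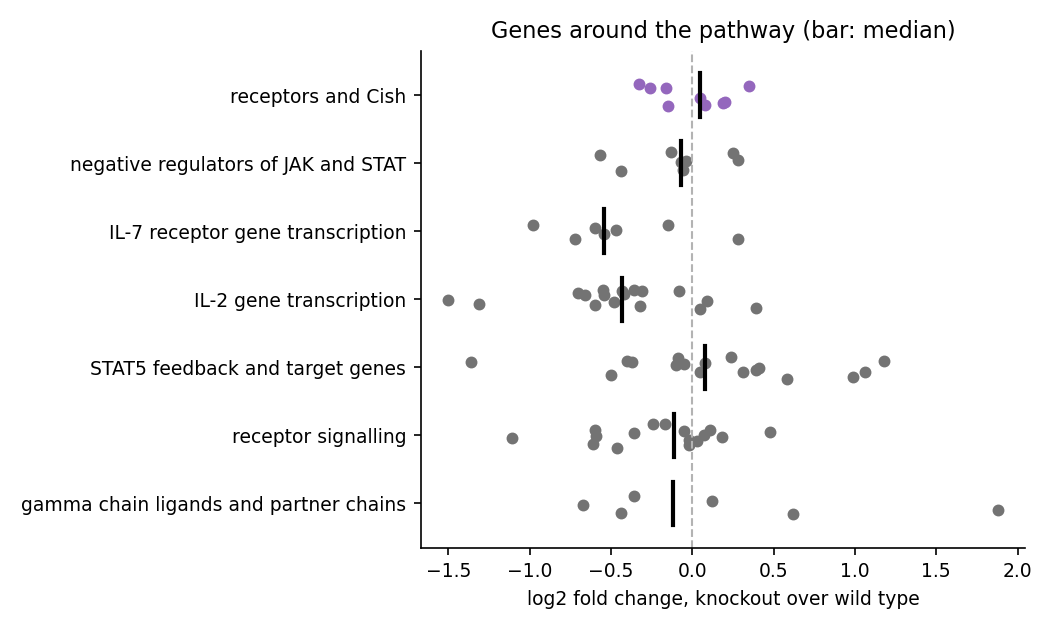
Fitted log2 fold change (horizontal axis, knockout over wild type) of each tested gene in the 6 pathway lists and in the receptor and Cish set, with a bar at the median. The receptor genes and Cish lie between -0.33 and 0.35 around a median of 0.05, and the genes acting on Il2 and Il7r transcription have medians of -0.43 and -0.54.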

How the data were processed

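TRIzol-extracted total RNA was sequenced on an Illumina HiSeq, per the labels' protocols. Bowtie2 and RSEM, with builds GRCm38.p6 and mm10, are named in the submitters' processing notes, without version or settings. The deposited table gave an expected count per gene and library, which the authors estimated with RSEM and which for 5 of the 10 genes was not whole, so that some reads were shared with other genes. Its expression columns were taken as FPKM made by the authors, since the lengths they imply had a median ratio of 0.995 to 0.998 to annotated lengths of genes with 1 transcript. The 4 average columns were left out. Of the gene IDs 99.3% matched RefSeq of GRCm38.p6, the source of coordinates and promoters.

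Counts were rounded, filtered with filterByExpr at a minimum count of 10 (12816 genes) and scaled by TMM (factors from 0.949 to 1.055). The genotypes were compared over all 4 libraries, unpaired, with edgeR 4.0.16 in R 4.3.3 (two-sided quasi-likelihood test, robust), with Benjamini-Hochberg adjustment over all genes and a threshold of 0.05. SE values came from the F statistic and 95% intervals from the test's degrees of freedom. DESeq2 1.42.0 and limma 3.58.1 were alternatives, 14 in all. No pair of libraries matched within counting noise (chi-square per degree of freedom from 30.4 to 161.8).

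Data were simulated for this comparison over 12816 genes, with changed genes at a mean count of at least 50. In them edgeR recovered 40% of 2-fold and 95% of 4-fold changes, and 9 of its 144 calls were false. Each simulated gene took the average spread at its level, with no length trend and no gaps shared between genes. These shares therefore do not tell what the test finds in the real libraries. There edgeR called 1 gene, and Gpr83 (log2 -2.56, edgeR adjusted p 0.275) was not called. Named genes were all 10 genes of the set, up to 4 genes of each list with the smallest p under 0.05 (or the 1 of smallest p), Setd2, the most abundant gene of each marker list, and for Il2 and the gene of smallest p the 3 genes of nearest profile among those with a mean of at least 5 CPM. Other named list genes were added after their values were seen, and some list genes are not reported here by name. The set, the lists and the alternatives were chosen with earlier results of these data known.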

Additional observations from a re-analysis of the deposited data

How the results depend on the processing

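No paired analysis was possible because the genotypes share no replicate numbers. None of the 125 alternative values for the 9 tested genes passed the threshold, with a smallest adjusted p of 0.306 (Il7r without knockout replicate 9), and 9 of them had the opposite sign. Scaled by library size only, Il4ra was at -0.03. With 1 library left out, log2 fold changes ran from -0.27 to 0.56 for Il2ra, -0.06 to 0.50 for Il2rb, -0.45 to 0.41 for Il4ra, -0.68 to 0.23 for Il7r and -0.41 to 0.62 for Cish, fits in which the lone library of a genotype is assumed to vary like the pair. Those of Il2rg, Il9r, Il15ra and Il21r kept their sign. No gene of the set was called under any of the 14 alternatives. Over all genes the calls moved from 1 higher and 0 lower to 48 and 33 with no filter on low counts, 90 and 93 in DESeq2, and 1 lower with the length trend removed. With 1 library left out they ran from 0 to 113 higher and from 0 to 81 lower, the most without wild type replicate 1. With a pseudocount of 0.1 in place of 1, the difference in log2 FPKM was 1.12 for Il2 (0.32 before) and -0.18 for Il9r (-0.07 before). The log2 difference of Il9r over Il2rg was -0.07 from CPM and 0.14 from FPKM. Without the filter, the median of the ligand list was 0.63, through genes of few counts, and that of the negative regulators was -0.06. With the length trend removed the medians were 0.00 for the negative regulators and -0.25 for factors acting on Il7r. Except where a value shows it, the cause was not tested. Counts were lowest for Il2, with at most 14 in a library, and Il9r, with at most 80.55, and their counting error is the largest of the set. The fit on FPKM gave no value for either gene, since their means lay under its minimum of 1. The setting that moved the median of all genes most was library size only (-0.081).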

Other observations

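The genes form 2 pairs of close neighbours in the genome. Il2ra and Il15ra lie 11977 bases apart on chromosome 2 with no protein-coding gene between them, and Il4ra and Il21r lie 23777 bases apart on chromosome 7, also with none between them. Il2ra and Il15ra did not share a level, with Il2ra between 295 and 492 FPKM and Il15ra between 9.43 and 12.59 FPKM. Il4ra (82.35 to 150.24 FPKM) and Il21r (104.88 to 139.06 FPKM) overlapped in level. The gap between knockout replicates was 1.83-fold for Il4ra and 1.24-fold for Il21r. Whether neighbours differ from other gene pairs in this respect was not tested.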
